A study of Mus musculus with 2 samples.

Results

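The genes described here are products and one transcription factor of the secretory epithelium that lines the uterus, its glands and the oviduct: *Ltf*, *Lcn2*, *Muc1*, *Lif*, *Prss28*, *Prss29*, *Foxa2* and *Ovgp1*. They were chosen by gene symbol, with their values on these arrays already known, so their levels and ratios are a description. They are 8 of the 19057 genes that the arrays named, and 19 of 45281 probes. RNA labelled as from ovaries was compared between wild type (WT) C57BL/6 female mice and their littermates homozygous (HOM) for Y123F. Y123F is a germline knock-in on the C57BL/6 background that puts phenylalanine in place of tyrosines 985, 1077 and 1138 of LepRb, the long form of the leptin receptor. The mice were 12 weeks old. RNA of several mice was pooled and run on 1 Illumina mouse whole-genome array for each genotype. Without replicates, a ratio is a property of these 2 pools and carries no error and no test. The study describes the HOM mice as without estrous cycles and the WT mice as cycling, and the stage at which the WT mice of the pool were collected is not given in the sources used here, so genotype and cycle stage cannot be told apart.

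Uterine glands and the lumen lining release proteins whose amounts follow the ovarian steroids. Estradiol strongly induces lactotransferrin (*Ltf*) in mouse uterine epithelium, and the forkhead factor *Foxa2* is needed in mice for the glands to form and for them to release the cytokine *Lif*, without which embryos do not implant. *Prss28* and *Prss29* encode the implantation serine proteinases, also known as Isp1 and Isp2, and *Ovgp1* encodes the glycoprotein that secretory cells of the oviduct release around the egg.

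The promoter windows of the 4 members that held the short motif of estrogen receptors are printed to show where the matches lie. They run from 250 bases before the annotated start to 50 bases from it on (RefSeq, GRCm38.p6, plus strand for all 4). Capitals mark GGTCA or its reverse complement, a single arm of the estrogen response element, and TATAAA, the TATA box.

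Ltf, chr9:111019042-111019341: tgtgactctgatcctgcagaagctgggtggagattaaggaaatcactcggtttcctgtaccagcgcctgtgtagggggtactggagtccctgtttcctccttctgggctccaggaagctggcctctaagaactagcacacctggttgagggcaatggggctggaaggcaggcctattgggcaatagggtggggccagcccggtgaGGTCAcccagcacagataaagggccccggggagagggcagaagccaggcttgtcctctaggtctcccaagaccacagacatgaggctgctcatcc
Prss28, chr17:25308396-25308695: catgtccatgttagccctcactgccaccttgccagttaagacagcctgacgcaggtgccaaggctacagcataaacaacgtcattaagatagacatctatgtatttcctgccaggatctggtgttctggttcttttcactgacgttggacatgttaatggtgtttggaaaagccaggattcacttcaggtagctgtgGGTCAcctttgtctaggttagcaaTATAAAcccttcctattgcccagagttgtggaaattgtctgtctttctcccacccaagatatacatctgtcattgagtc
Prss29, chr17:25318404-25318703: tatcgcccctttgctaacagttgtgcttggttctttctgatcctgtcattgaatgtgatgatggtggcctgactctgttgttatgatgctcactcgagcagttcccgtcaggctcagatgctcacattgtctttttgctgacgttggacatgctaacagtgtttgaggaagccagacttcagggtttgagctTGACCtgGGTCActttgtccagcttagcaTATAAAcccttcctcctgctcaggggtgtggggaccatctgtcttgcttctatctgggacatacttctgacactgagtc
Ovgp1, chr3:105973552-105973851: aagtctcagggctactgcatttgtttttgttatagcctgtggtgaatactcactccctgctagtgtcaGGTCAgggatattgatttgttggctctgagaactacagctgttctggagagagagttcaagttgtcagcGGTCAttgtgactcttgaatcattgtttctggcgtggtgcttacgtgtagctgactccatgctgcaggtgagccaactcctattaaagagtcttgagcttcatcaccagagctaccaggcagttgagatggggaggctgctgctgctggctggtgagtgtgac

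*Ltf* held GGTCA at -45 from its start, *Prss28* at -53 and *Prss29* at -51, and *Prss29* held a further match on the opposite strand at -58. Both protease genes held TATAAA at -29. *Ovgp1* held GGTCA at -182 and -113. The motifs were sought on both strands of all 10 windows of the 8 genes, 3 of which belong to *Foxa2*, and none of the matches overlapped. GGTCA was found for 4 of the 8 genes and in 40.5% of 32851 promoter windows of the same length, and TATAAA for 4 genes (*Muc1*, *Prss28*, *Prss29* and *Foxa2*) and in 13.6% of windows. Counted by window, each of these motifs was in 4 of the 10. The TATAAA of *Muc1* lay at -31, and that of *Foxa2* at -208 on the opposite strand. The whole palindromic element, GGTCA and TGACC with 3 bases between them (0.07% of windows), the FOXA site TGTTTAC (3.65%) and the STAT site TTCNNNGAA (8.3%) had no match in any of the 10 windows. *Prss28* and *Prss29* lie next to each other on chromosome 17, and 64.5% of 321 aligned positions of their windows were identical, against 52.2% of 347 and 52.4% of 353 for each of them with *Ltf*. These matches describe the letters of the windows alone.

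**Figure D1:**
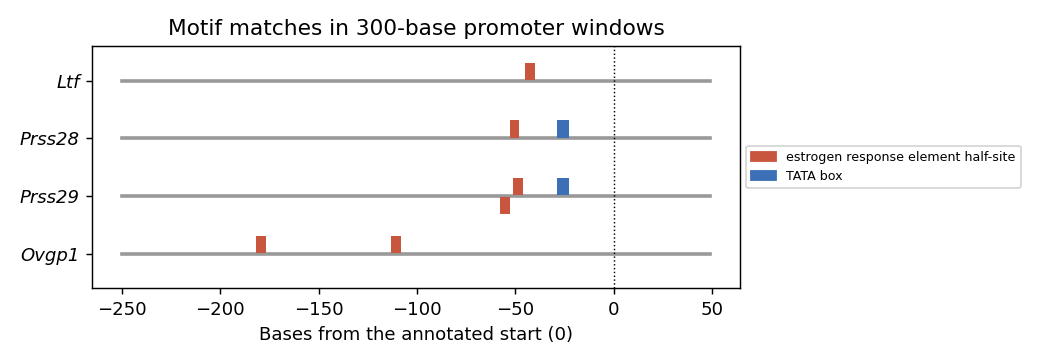
Positions of GGTCA matches (red) and TATA boxes (blue) along the promoter windows of *Ltf*, *Prss28*, *Prss29* and *Ovgp1*; the horizontal axis is the distance in bases from the annotated start, and bars above or below a line are on the strand of the gene or the opposite one. The GGTCA matches of *Ltf*, *Prss28* and *Prss29* lie between -58 and -45, those of *Ovgp1* at -182 and -113.

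The organ named in the labels was checked first. Signals are printed as deposited, in arbitrary units, pairs of signals give WT first and HOM second, and a single value in parentheses after a pair is the log2 HOM/WT. Of 21 measured ovary genes 5 were detected on both arrays at a detection p-value below 0.01, and *Star*, *Cyp11a1* and *Cyp17a1*, which steroid-making ovarian cells need, were not detected on either. Among those detected on both, the inhibin subunit *Inha* read 21.6 and 49.3, the oocyte factor *Gdf9* 21.3 and 34.7, and the activin antagonist *Fst*, which other tissues also make, 230.1 and 195. The rest of the 5 were *Insl3* (52.3 and 76.4) and *Akr1c18* (17.2 and 16.7). The oocyte factor *Bmp15* (7.91 and 17.9) passed detection in HOM alone, and *Zp2* (15.2 and 13.7) in WT alone. Of 9 smooth muscle genes 8 were detected on both, among them *Acta2* (17044 and 16839), *Myh11* (2550 and 3032), *Des* (1410 and 1702), *Actg2* (5991 and 5811), *Smtn* (2162 and 3667) and *Lmod1* (169 and 149), and *Tagln* read 505 and 565. Of 30 measured genes of uterine gland and lumen epithelium 18 were detected on both. Few ovarian genes, oocyte factors among them, were thus detected under a label of ovaries, and which tissues the pools held was not tested. In such bulk RNA, more cells of a type and more RNA per cell cannot be told apart. The arrays detected 32.9% (WT) and 34.4% (HOM) of probes, with a median signal of 89.0 and 99.2 among them, and detection began at signals of 15.1 and 15.9. The log2 HOM/WT values were computed after background correction, addition of 16 and quantile normalization, and the brightest probe stands for a gene. The addition pulls the ratios of dim probes toward 1. Between detected probes of one gene, log2 HOM/WT had an SD of 0.33 over 3225 genes, and of 0.35 over 1288 genes with several detected probes of a mean signal below 100, which is the technical scale used here.

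Each of the 8 genes was detected on at least 1 array, and 7 were detected on both. *Ltf*, *Prss29* and *Lif* were past 2-fold higher in HOM, and none was past 2-fold lower. Among 9817 detected genes, 0.418% were past 2-fold higher and 1.49% past 2-fold lower, and of those with a mean signal below 100, to which 6 of the members belong, 0.494% were past 2-fold higher. Without scaling between the arrays, 154 of the detected genes were past 2-fold higher and 50 lower, against 41 and 146 after quantile normalization. Since the members were chosen with these ratios known, nothing is read from that contrast. Of the 19 probes, 9 were detected on both arrays, 3 on the HOM array only and 7 on neither. Of the 12 detected probes, 6 were past 2-fold higher and none past 2-fold lower, against 0.472% and 1.51% of 14195 detected probes of named genes. Nothing is read from this contrast either. The members were chosen with their ratios known, and 3 of the 12 probes passed detection only through the HOM array, where they are high.

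**Figure D2:**
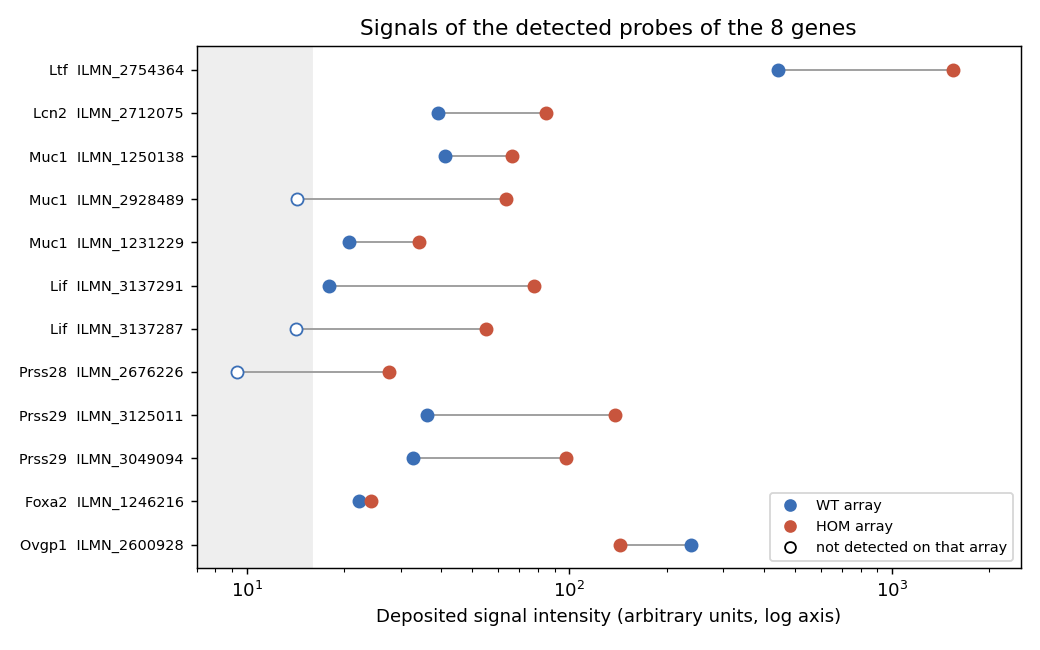
Deposited signal intensity (arbitrary units, log axis) of the 12 detected probes of the 8 genes on the WT array (blue) and the HOM array (red); open circles were not detected on that array, and the grey area ends at the dimmest detected signal of the HOM array, 15.9. All probes but that of *Ovgp1* lie further right on the HOM array, from 22.3 to 24.3 for *Foxa2* and from 443 to 1544 for *Ltf*.

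*Ltf* encodes lactotransferrin, an iron-binding protein of mucosal secretions. Its bright probe ILMN_2754364 read 443 in WT and 1544 in HOM. The HOM value was 3.49 times the WT value as deposited and 2.73 times after normalization, a log2 HOM/WT of 1.45, which ranked 1 of 9817 detected genes. The other probe of *Ltf*, ILMN_2889020, was near background on both arrays, with 0.675 and 4.47, and gives no fold. The ratio of *Ltf* therefore rests on 1 probe. It stayed past 2-fold under each processing, with a log2 HOM/WT between 1.39 and 1.77 over the 7 ways of processing compared in the plot of ratios. With 1 detected probe, the mean over detected probes, among these 7, could not differ.

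*Lcn2* encodes lipocalin 2, a secreted protein that keeps iron from bacteria by binding their siderophores. Its only probe read 39.2 in WT and 84.7 in HOM, a log2 HOM/WT of 0.67. The deposited signals differed 2.16-fold, and under the 7 ways of processing it stayed below 2-fold, with log2 values between 0.46 and 0.87. *Ltf* and *Lcn2* are also stored in the specific granules of neutrophils, so the markers of these cells were read beside them. Of 19 measured neutrophil genes, *Ltf* and *Lcn2* included, 6 were detected on both arrays, and the other 5 detected genes had a median log2 HOM/WT of 0.03. *Camp* and *Ngp*, which share that granule, had signals of -6.08 and 3.88 in WT and -7.29 and -0.425 on the HOM array, below detection on both. *S100a8*, an abundant cytosolic protein of neutrophils, had 19.7 and 20.6, *S100a9* was not detected (7.58 and 10.1), and *Mpo*, of the primary granules, had 27.0 and 48.7. The protease *Mmp9* had 36.7 and 39.8 and the decoy receptor *Il1r2* 15.1 and 24.4. The summed signal of the list was 664 in WT and 1848 in HOM, with *Ltf* and *Lcn2* in it, and without these members no gene of the list was past 2-fold.

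*Muc1* encodes a mucin anchored in the apical membrane of epithelium. Of its 4 probes, ILMN_1250138 had signals of 41.2 (WT) and 66.6 (HOM), and ILMN_1231229 had 20.7 and 34.1. Both gave values below 2-fold, log2 HOM/WT 0.33 and 0.28. A further probe, ILMN_2928489, had 14.4 on the WT array, where it was not detected, and 63.6 on the HOM array, at least 2.29-fold higher. The fourth, ILMN_1259202, had 10.6 and 13.8 and was detected on neither. The probes of *Muc1* thus disagreed in size though not in direction, with an SD of 0.53 among the 3 detected ones against 0.35 for dim probes over all genes.

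*Lif* encodes leukemia inhibitory factor, a cytokine of the interleukin 6 family that uterine glands release in mice. The probes ILMN_3137291 and ILMN_3137287, both annotated to one of its RefSeq transcripts, had signals of 18.0 and 14.2 in WT and 77.4 and 55.2 on the HOM array. The first gave a log2 HOM/WT of 1.29 (rank 5 of 9817), and the second, not detected on the WT array, was at least 2.05-fold higher in HOM. These probes were thus at or just under the detection limit in WT and well above it in HOM. The other 3 probes, annotated to another transcript, were not detected on either array, with signals between -5.93 and -3.17 in WT and between -7.48 and 7.07 in HOM. With 50 added in place of 16 the log2 HOM/WT of *Lif* was 0.80, below 2-fold, and without background correction it was 1.85.

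*Prss29* was measured by 2 probes, both detected on both arrays. ILMN_3125011 read 36.3 in WT and 138 in HOM, and ILMN_3049094 had 32.7 and 97.3. Their log2 HOM/WT of 1.33 and 1.01 differed by 0.32, about the SD between probes of one gene, and the first ranked 4 of 9817. *Prss29* is the only member in which every probe was detected on both arrays and past 2-fold. The dimmer probe fell below 2-fold after median scaling (0.95), and with 50 added both did, at 0.96 and 0.69.

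*Prss28*, its neighbour, had 1 probe, which read 9.34 in WT, below detection, and 27.5 in HOM. It was at least 1.26-fold higher in HOM, and its log2 HOM/WT was 0.61 after the addition of 16 and 1.31 without background correction. The 2 proteases had the same direction, but the size for *Prss28* depends on how its WT signal near background is treated. The genes are similar, and whether their probes also bind RNA of the other was not tested.

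*Foxa2* had the ratio closest to 1. Its detected probe read 22.3 in WT and 24.3 in HOM, and its log2 HOM/WT, -0.08 in the quantile-normalized values, turned to 0.07 without scaling, so it has no direction. The second probe was not detected on either array (4.12 and -7.94). Of its family, *Foxa1* (3.56 and 6.39) and *Foxa3* (-3.29 and 0.580) were not detected either. The gland factor thus had near-equal dim signals on both arrays, though *Lif* and *Prss29* were past 2-fold.

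*Ovgp1* had the lowest log2 HOM/WT of the members. Its bright probe read 238 in WT and 144 in HOM, a HOM/WT ratio of 0.517 and a log2 HOM/WT of -0.95 (rank 183 from the lowest), 0.05 short of 2-fold. The other probe, with 4.25 and 3.54, was near background, so the ratio rests on 1 probe. The study lists *Ovgp1* as far more than 2-fold lower in HOM on its arrays but higher in HOM by qPCR. The deposited values thus share the direction of its array result but not its size. The log2 value was -1.03 without background correction and in the authors' normalized table and -0.67 without scaling between the arrays, where the median of all detected genes was 0.28 in place of 0.04.

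**Figure D3:**
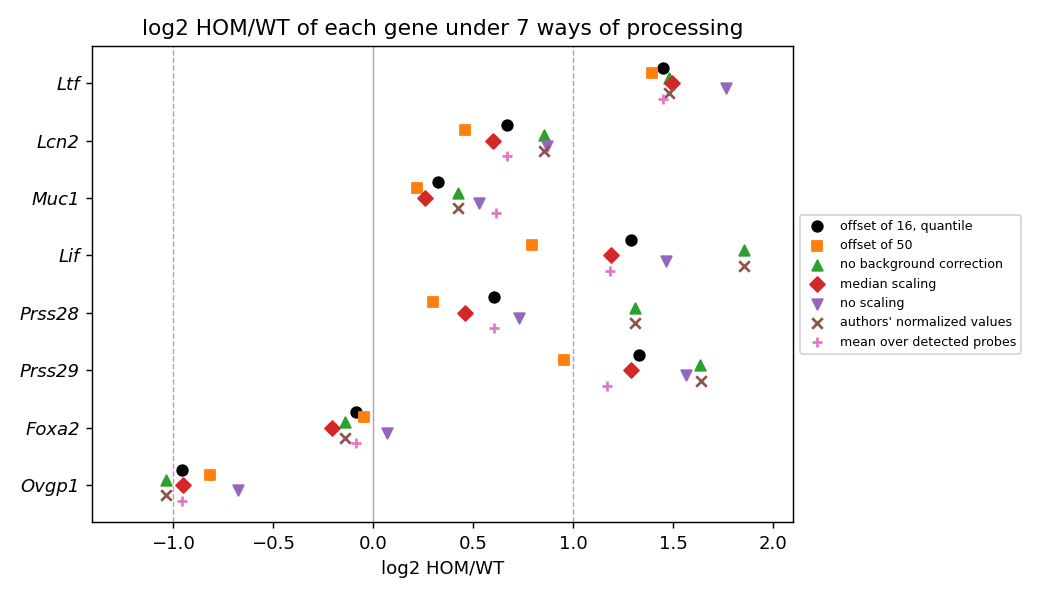
log2 HOM/WT (horizontal axis) of each of the 8 genes under 7 ways of processing, 1 mark for each; dashed lines are at 2-fold. *Ltf* lies to the right of 1 and *Ovgp1* to the left of -0.6 under each of them, *Foxa2* lies on both sides of 0, and the marks of *Lif* spread from 0.80 to 1.85.

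By likeness of log2 HOM/WT among the other 8650 genes detected on both arrays, the nearest to *Ltf* were *Smarcc1*, a chromatin remodelling subunit (1.35), *Prss29* and *Lif*. Nearest to *Ovgp1* were the endocytic *Fcho2* (-0.95), *Fnbp1l* (-0.95) and *Bclaf1* (-0.96). With 2 arrays this likeness is a similar ratio and no more. *Prss29* and *Lif* are members chosen with their ratios known, so nothing is read from their place beside *Ltf*.

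**Figure D4:**
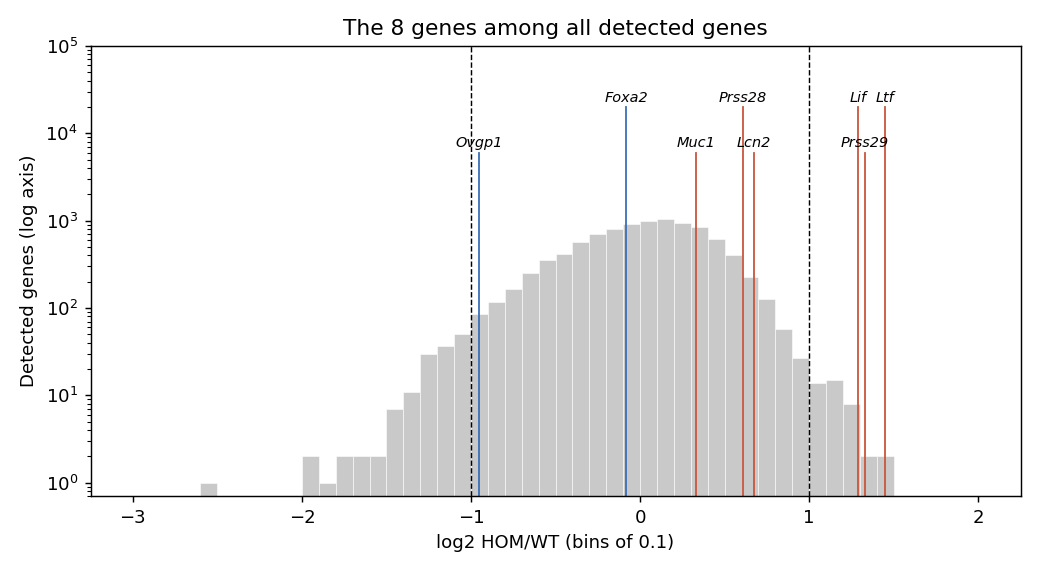
Number of detected genes (log axis) by log2 HOM/WT in bins of 0.1, with the 8 genes as vertical lines (red above 0, blue below) and dashed lines at 2-fold. *Ltf*, *Prss29* and *Lif* lie in the sparse right tail, past 1.29 or at it, and *Foxa2* in the middle of the 9817 genes.

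Other estrogen-induced uterine genes were mostly slightly higher in HOM and none was past 2-fold. Of 28 measured genes of that list 24 were detected, and 21 remained without *Ltf*, *Muc1* and *Lcn2*. Of these 16 had a log2 HOM/WT above 0, with a median of 0.19, against 53.8% of all detected genes above 0 and a median of 0.04. Some of the 16 passed detection on the HOM array only, which favours values above 0. The median of the list with its members was 0.27 over genes detected on both arrays and 0.18 with no filter on detection. *Greb1*, a growth gene induced by estrogen, had signals of 58.1 and 91.6 (0.33), the replication gene *Mcm3* had 35.3 and 61.6 (0.40), and *Top2a*, which unwinds DNA in dividing cells, had 124 and 215 (0.44, with 0.06 as the mean over its detected probes). *Vegfa*, a growth factor for blood vessels, had 245 and 221 (-0.42), and *Clca1* was at least 1.02-fold higher in HOM, where alone it was detected. The study reports estrogen in the blood of HOM mice below the detection limit of its assay. It also reports that vaginal smears of HOM mice always held anucleated cornified cells, the main cells by which it defines an estrus smear. How the values of these genes relate to estrogen was not tested.

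The estrogen receptor itself was lower in HOM. *Esr1*, which encodes estrogen receptor alpha, read 374 in WT and 161 in HOM, a log2 HOM/WT of -1.44 that stayed past 2-fold without scaling (-1.14). It rests on 1 probe, and the other 3 of *Esr1* were not detected. *Esr2*, the beta receptor, was not detected, and the progesterone receptor *Pgr* had 38.1 and 40.7 (-0.13). The coactivators *Ncoa1* and *Ncoa2* passed detection in WT alone and were 1.10-fold and 1.18-fold or more lower in HOM, and the progesterone-binding *Pgrmc1* had -0.41. Of 12 measured steroid receptors and coregulators 8 were detected, *Esr1* alone past 2-fold, with a median of -0.32. Of 16 measured genes induced by progesterone 13 were detected, with a median of -0.07. *Hoxa11*, a homeobox factor of uterine stroma (101 and 48.7, log2 HOM/WT -1.09), and *Lrp2*, an endocytic receptor (1549 and 937, -1.03), were past 2-fold lower after quantile normalization but not without scaling (-0.86 and -0.72), and *Lrp2* was at -0.99 after median scaling. The interleukin 13 receptor *Il13ra2* had -0.61, the epithelial ligand *Ihh* 0.03, and *Fkbp5*, a chaperone of steroid receptors, 0.71.

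Secreted proteins of mucosal defense had a median of 0.51 over the 9 detected of 15 measured, and 0.48 over the 7 that are not members. With no filter on detection the median of the 15 was 0.19. Of the 9 detected, 8 were above 0, and *Cfb* had signals of 26.1 and 18.0 (-0.46). *Ltf* was the one past 2-fold. *Slpi*, an inhibitor of leukocyte proteases, had signals of 83.8 and 195 (0.83, or 1.08 with no scaling). *Sftpd*, a collectin that binds microbes, was detected on the HOM array only (39.2, against 13.1), a level at least 1.59-fold higher. *Pglyrp1*, which binds bacterial cell walls, had 125 and 228 (0.51), and the lysozyme *Lyz2* had 0.48, with 0.17 as the mean over its detected probes.

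Among tryptase-like and other secreted serine proteases 14 of 24 measured genes were detected, 11 of them above 0 in log2 HOM/WT, with a median of 0.41, or 0.34 over the 12 other than *Prss28* and *Prss29*. Of all detected genes 53.8% were above 0. Several of the 14 passed detection on the HOM array only, which favours values above 0. With no filter on detection the median of the 24 was 0.08. *Prss12* had signals of 16.6 and 41.4 (0.65) and *Tmprss4*, a membrane protease of epithelium, 33.8 and 62.1 (0.45). The mast cell proteases *Tpsb2* and *Mcpt4* and the tryptase gene *Tpsab1*, a transcribed pseudogene in the RefSeq annotation used here, passed detection in HOM alone and were 1.22-fold, 1.14-fold and 1.03-fold or more higher there. *Tpsb2* and *Tpsab1* lie on the same stretch of chromosome 17 as *Prss29*. *Prss34*, on the other side of *Prss28*, was not detected on either array. Of 17 measured serine protease inhibitors 12 were detected, and their median was 0.11, with none past 2-fold. *Serpina1b*, a form of antitrypsin, had 90.2 and 191 (0.71), *Serpinf1* 3012 and 4428 (0.29), *Serpinb1a* 38.9 and 37.4 (-0.23) and the trypsin inhibitor *Spink1* 2627 and 3386 (0.08), while *Spink4* and *Spink5* were not detected.

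The receptor and pathway through which LIF acts gave both signs. Of 21 measured genes 16 were detected, 7 with a log2 HOM/WT above 0, with a median of -0.05. *Lifr*, the receptor, was not detected by any of its 3 probes. *Il6st*, the shared signaling chain, had signals of 260 and 247 (-0.36, and -0.07 without scaling), and *Stat3*, the transcription factor downstream, had 500 and 495 (-0.32, with -0.01 as the mean over its 3 detected probes). *Socs3*, which STAT3 induces, had 183 and 351 (0.60), and the AP-1 factor *Junb* had 161 and 503 (1.26), the one gene of the list past 2-fold. Of 8 cytokines of the interleukin 6 family *Lif* was the only one past 2-fold. *Ctf1* had 96.3 and 146 (0.26), *Clcf1* was at least 1.12-fold lower in HOM, and *Il6* and *Il11* were not detected.

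Genes of gland formation had a median log2 HOM/WT of -0.31 after quantile normalization and -0.05 without scaling. By the brightest probe *Hoxa11* was the one past 2-fold, in the lower direction. Of 24 measured genes listed with *Foxa2* 15 were detected, 4 with a log2 HOM/WT above 0 (7 without scaling), against 53.8% of all detected genes (73.6% without scaling). *Sox17*, a gland and oviduct factor that acts with *Foxa2* in mice, had signals of 918 and 668 (-0.77). As the mean over its 2 probes *Sox17* was at -1.03, past 2-fold lower. *Ctnnb1*, which encodes beta-catenin, had 1731 and 1179 (-0.86, with -0.46 over its 4 probes), and *Lgr5*, a marker of epithelial progenitors, was at least 1.33-fold lower in HOM. The Wnt effector *Lef1* and the ligand *Wnt7b* passed detection in HOM alone and were at least 1.19-fold and 1.27-fold higher, and *Sox9* had 239 and 373 (0.32). Of 30 measured genes of gland and lumen epithelium 22 were detected, 11 with a log2 HOM/WT above 0, with a median of -0.002. The gland chemokine *Cxcl15* had 146 and 203 (0.17). General epithelial genes had a median of -0.04 over 15 detected of 19 measured. *Krt8* had 887 and 1088 (-0.04), *Krt19* 106 and 206 (0.59), *Krt7* 47.5 and 99.7 (0.65) and *Grhl2*, an epithelial transcription factor, 66.6 and 36.7 (-0.85). The adhesion gene *Cdh1* had 272 and 235 (-0.48), and *Epcam* was not detected (8.57 and 2.67).

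The oviduct genes read beside *Ovgp1* were divided. Of 11 measured genes of oviduct secretory epithelium 8 were detected, 3 with a log2 HOM/WT above 0, with a median of -0.11. *Pax8*, a factor of oviduct secretory cells, was dim and near equal (26.9 and 29.8, log2 HOM/WT -0.08), and the junction gene *Cldn4* had 274 and 388 (0.17). Of 12 measured genes of ciliated cells, which lie between them, *Tppp3* (228 and 288, 0.03) and *Rsph1* (66.5 and 106, 0.34) were detected on both arrays and *Tekt1* (12.8 and 19.7) in HOM alone. The other 9 were not detected, their master factor *Foxj1* (1.67 and 5.98) among them. Without scaling, where the median of all detected genes was 0.28, the medians of several of these lists turned above 0, to 0.30 for gland and lumen epithelium, 0.29 for general epithelium, 0.25 for LIF signaling, 0.13 for oviduct secretory genes and 0.12 for genes induced by progesterone. Those of the steroid receptors (-0.09) and of gland formation (-0.05) remained below 0. How much oviduct tissue each pool held was not tested. Of the family of chitinase-like proteins to which *Ovgp1* belongs, only *Chid1* was also detected, with 93.3 and 203 (0.74), and the chitinases *Chia1* and *Chit1* were not.

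**Figure D5:**
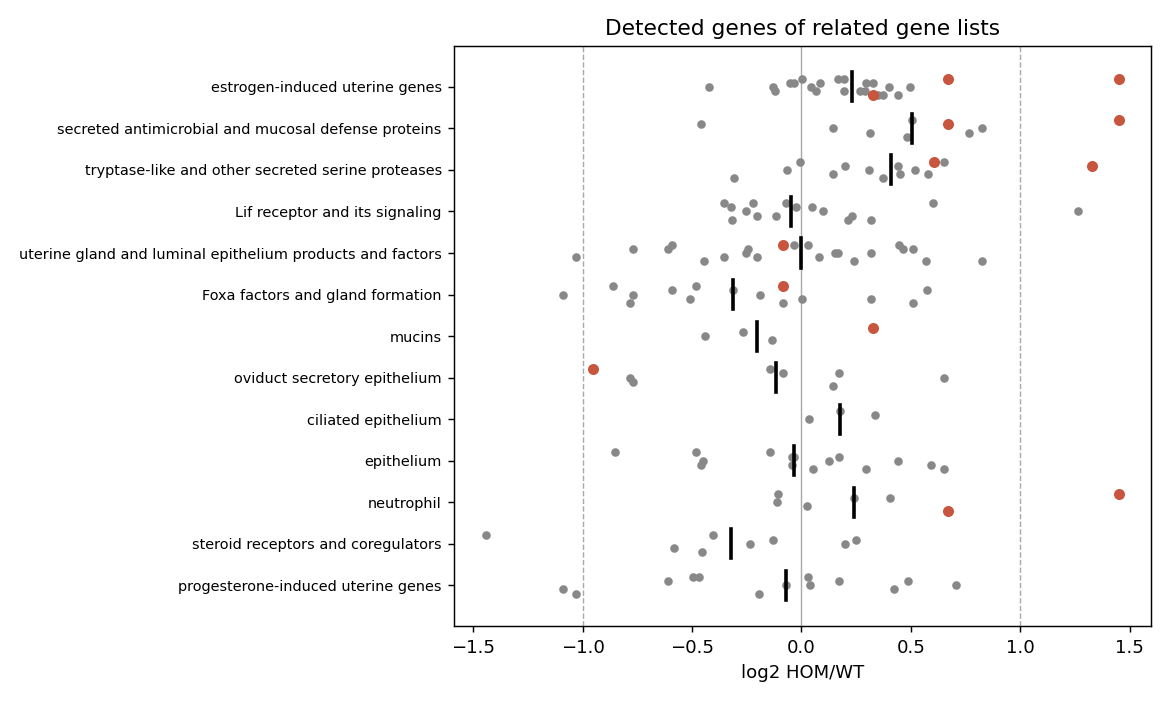
log2 HOM/WT (horizontal axis) of the detected genes of 13 lists, 1 point for a gene, members of the 8 genes in red, the median of each list as a black bar, and dashed lines at 2-fold. Outside the members, *Junb* lies past 2-fold on the right, and *Esr1*, *Hoxa11* and *Lrp2* on the left.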

How the data were processed

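RNA labelled as from ovaries was measured as 1 pool per genotype (WT and HOM), each on 1 Illumina BeadChip array. The authors deposited background-subtracted probe intensities made with GenomeStudio, per the submitters' processing notes, while the study's methods name BeadStudio, and no version is given in the sources used here. Each intensity was deposited with a detection p-value against negative control beads. The authors' second table of intensities was matched by quantile normalization of the linear signals to within 1.57.

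Of 45281 probes 34885 carried 1 gene symbol in the platform annotation. The signals were corrected with limma 3.58.1 (R 4.3.3) by normexp with the background from the detection p-values, 16 was added, and log2 values were quantile normalized. Detection meant a p-value below 0.01. A probe detected on 1 array has a bound, its value there over the higher of the dimmest detected probe and its own value on the other array. Such a bound makes no allowance for measurement error. No test was possible with 1 array per genotype. Past 2-fold, the rule of size used in place of a test, is a log2 HOM/WT beyond 1 or -1. The steps were checked on simulated data. Signal over background, and the number of arrays, limit the precision.

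Named are all probes of the members, and in 24 gene lists the first 3 genes and up to 4 detected non-members furthest from 0 in log2 HOM/WT, and the 3 genes nearest to *Ltf* and *Ovgp1* in log2 HOM/WT. Beyond this rule *Ngp*, *Prss34*, *Slc22a17*, *Lef1*, *Wnt7b*, *Sox9*, *Insl3*, *Akr1c18*, *Zp2* and *Cfb* were added after their values had been seen. The members and lists were chosen with earlier results of these data known. Promoter windows were aligned with Biopython 1.88. Alternatives were other offsets, corrections, scalings, detection filters, folds, the authors' normalized values and the mean over probes.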

Additional observations from a re-analysis of the deposited data

How the results depend on the processing

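No paired analysis was possible because each genotype has 1 array, and for the same reason no replicate could be left out. The count of members past 2-fold (3 higher, 0 lower) was the same after median scaling, without scaling, under each detection filter and as the mean over probes. It was 1 with an offset of 50, where *Ltf* alone passed, 5 (4 higher with *Prss28*, and 1 lower, *Ovgp1*) both without background correction and in the authors' normalized values, 6 (5 higher, 1 lower) at 1.5-fold and 0 at 3-fold. Over all detected genes, 41 were past 2-fold higher and 146 lower. With an offset of 50 these were 4 and 48, without background correction 367 and 466, in the authors' normalized values 367 and 467, without scaling 154 and 50, at 1.5-fold 517 and 815, and at 3-fold 0 and 8. Of 48 values of single members under the alternatives, 42 moved by less than the SD between probes of one gene, 6 moved by more (*Lif*, *Prss28* and *Prss29*), and none of *Ltf*, *Lif* and *Prss29*, the members past 2-fold, changed direction. Some of the 42 could not move, since for a member with 1 detected probe the mean over probes is the same value. The authors' normalized values also nearly repeat those without background correction. Of 216 list medians 204 moved by less than that SD. The other 12 were of interleukin 6 cytokines, lipocalins, chitinases, squamous epithelium, eosinophils and uterine stroma, the last from -0.07 to -0.45 as the mean over detected probes. The 5 dimmest members on the WT array, *Prss28*, *Lif*, *Foxa2*, *Prss29* and *Lcn2*, had signals between 9.34 and 39.2 there. Background correction moved *Lif* and *Prss28* by more than that SD.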

Other observations

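Some gene groups near the secretory genes were not described above. Among genes of iron handling 11 of 15 passed detection, and their median log2 HOM/WT was 0.19. Transferrin, *Trf*, a relative of *Ltf*, had signals of 71.2 and 132 (0.52), and the iron exporter *Slc40a1* had 154 and 127 (-0.52). The iron transporter *Slc11a2* had 79.0 and 133 (0.39), the ferroxidase *Cp* 68.3 and 115 (0.41), and *Meltf* was not detected. *Slc22a17*, a receptor of lipocalin 2, had 73.0 and 110 (0.27). Of 14 measured lipocalins *Lcn2* alone was detected on both arrays. *Lcn8* (14.4 and 17.2) was detected in HOM alone, and *Rbp4* and *Ptgds* were not detected. Of 10 measured mucins and mucin-like proteins 4 were detected, and *Muc1* alone had a value above 0. *Emcn*, a sialomucin of endothelium, had 893 and 827 (-0.44), the adhesion molecule *Mcam* 802 and 903 (-0.14), *Muc13* was at least 1.06-fold lower in HOM, and *Muc4* was not detected. Of 7 measured eosinophil genes *Prg2*, the major basic protein of their granules, was the one detected, with 25.3 and 74.3 (0.94, or 1.13 with no scaling), and *Epx* and *Siglecf* were not. Of 14 genes of stratified squamous epithelium, as in the vagina, *Krt14* (15.6 and 17.7) and *Lor* (39.6 and 70.9, 0.44) were detected on both arrays, *Krt16* (7.69 and 17.6) and the basal cell factor *Trp63* in HOM alone, and the others, *Krt5* and *Krt13* included, on neither.

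Of 10 measured genes of uterine stroma 9 were detected, with a median of -0.07 by the brightest probe and -0.45 as the mean over detected probes, and *Hoxa11* was the one past 2-fold. The proteoglycan *Dcn* had 5822 and 4106 (-0.74) and the growth factor receptor *Pdgfra* had -0.65, *Hoxd10* had 1941 and 1700 (-0.51), and *Hoxa10* was not detected. Of 8 position genes of the reproductive tract 4 were detected, *Hoxa9*, *Tbx2*, *Tbx3* and *Hoxa11*, with a median of 0.02.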
